A study of Rattus norvegicus with 8 samples.

Results

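Interleukins are secreted proteins through which leukocytes signal to each other, and each acts through receptor chains on the surface of the responding cell. Receptors of the IL-1 family signal through MyD88 and the IRAK kinases, while most other interleukin receptors signal through JAK kinases and STAT factors. Some members work against the signal: receptor antagonists occupy a receptor without activating it, and decoy receptors bind the ligand without passing it on. Glucocorticoids are known to hold back IL-1β and to raise IL-10 and the decoy receptor IL-1R2 in leukocytes, and thymocytes die when glucocorticoids are given.

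The genes described here are the interleukins and their receptors on a whole genome array, without the receptors of the common γ chain cytokines. They are all array names that begin with Il and a digit, except Il7r, Il2ra, Il2rb, Il2rg, Il4r, Il9r, Il15ra and Il21r. The rule found 56 genes of 33933 distinct names on the array. They comprised 26 ligands (receptor antagonists included), 29 receptors (decoys and soluble binding proteins included) and Il1rl1l, which is listed today as Tmed1 and is neither. The 56 genes were represented by 67 of the 41012 probes. Where a gene had several probes, the brightest stands for it, and 9 genes had more than 1.

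Thymocytes came from adrenalectomized male Sprague-Dawley rats, and the thymi of 3 rats made up each pool. The cells were kept in culture for 6 h, either untreated (Control, 4 arrays) or with dexamethasone, a synthetic glucocorticoid, at 100 nM (Dex, 4 arrays). All rats lacked adrenal glands, so neither group had adrenal hormones before culture. RNA was hybridized to 1-color Agilent arrays, and all levels below are log2 normalized intensities, which compare a gene between arrays and not with other genes.

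The study's text gives 3 biological replicates while 4 arrays per group were deposited, and which arrays came from the same pool is not given in the sources used here, so the p-values measure the spread between arrays. Between 60.7% and 84.1% of all probes were well above background, and the lowest 3 arrays were Dex 2, Dex 1 and Control 1. Of the 3 slides, 1 held Control 1 with Dex 3, 1 held the other Control arrays and 1 the other Dex arrays. Markers of double positive thymocytes, the main cells of the thymus, were bright: 10 of 11 were well above background on all arrays, and the 11th, Cd8b, had an outlier spot on Control 1. The summed linear levels of these markers were 212583 to 292502 on the Control arrays, where the lowest lacks Cd8b, and 260195 to 313711 on the Dex arrays. None of the 11 was called, 8 had lower and 3 had higher values with dexamethasone, and the Dex arrays were all below the Control arrays for Lck (0.626-fold, limma adjusted p = 0.112) and Ptcra (0.656-fold, limma adjusted p = 0.154). In such a mixed preparation, fewer cells of a type and less RNA per cell cannot be told apart.

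Il1r2, the decoy receptor for IL-1, was the interleukin gene that passed the test across all probes, and it was 4.90-fold higher with dexamethasone. No ligand passed. Il1b, Il1rn and Il15 had lower values with dexamethasone, and Il10, Il8rb, Il13ra1 and Il12rb2 had higher ones, but none of these differences held up after adjustment over the array. The genes for IL-6 and IL-7 gave no signal above background on any array.

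The probe for Il1r2 is shown because the 1 call rests on it. It detects a transcript sequence whose ends lie 2841 bases apart in build rn3, at chr9:39318068-39320908 on the plus strand, so its 60 bases cross at least 1 intron. No base is marked.
Il1r2: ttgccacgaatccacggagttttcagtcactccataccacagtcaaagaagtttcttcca

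The Il1r2 level was 6.42, 6.98, 5.86 and 6.44 on Control arrays 1 to 4, and 9.35, 9.21, 7.89 and 8.42 on Dex arrays 1 to 4. Every Dex array was above every Control array, and all 8 were well above background. The Control mean was 6.42 ± 0.46 and the Dex mean 8.72 ± 0.69 (SD, n = 4 each). This gave a log2 fold change of 2.29 ± 0.38 (SE), with a 95% interval of 1.43 to 3.16 and a limma adjusted p of 0.0409. Of all probes on the array, 0.778% were called at this threshold, and of the members 1 of 67, or 1.49%.

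The call stood close to the threshold. With the replicate number as a block, the adjusted p for Il1r2 was 0.0531 by limma, and the difference within replicate numbers 1 to 4 was 2.92, 2.23, 2.03 and 1.98. With 75th percentile scaling the limma adjusted p was 0.0622. On the slide that Control 1 and Dex 3 shared, which holds 1 array of each group, the difference was 1.47. When a single array was left out, the limma adjusted p was 0.0296 without Dex 3, and between 0.0918 and 0.152 without Control 1, Control 2, Control 3, Control 4, Dex 1, Dex 2 or Dex 4. The log2 fold change in these 8 fits was 2.08 to 2.57. It was 1.41 after normexp background correction (limma adjusted p = 0.0426) and 1.73 without Control 1, Dex 1 and Dex 2 (limma adjusted p = 0.0479). The latter fit was chosen after seeing the data and called 4671 of all probes, against 319 in the main test.

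Il1r2 lies in a cluster of IL-1 receptor genes on chromosome 9, in the order Il1r2, Il1r1, Il1rl2, Il1rl1, Il18r1 and Il18rap by their rn3 probe positions. The other 5 genes of the cluster were each below the background limit on 2 or more arrays and had log2 fold changes of -0.44 to 0.43, none of them called. Il1r1, the signaling receptor for IL-1, had levels of 2.39, 3.17, 1.37 and 2.13 in Control and 2.55, 2.87, 1.75 and 3.62 in Dex. It was well above background only on Control 2 and Dex 4. Il1rap, the accessory chain that both IL-1 receptors bind, was above background on all arrays and was encoded elsewhere, on chromosome 11. Its level was 7.03, 7.01, 6.87 and 6.93 in Control and 7.21, 7.65, 6.72 and 6.57 in Dex, so that the Dex arrays lay on both sides of the Control arrays. For the IL-1 receptors, the array therefore measured the decoy and the accessory chain on all arrays and the signaling chain on 2.

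**Figure D1:**
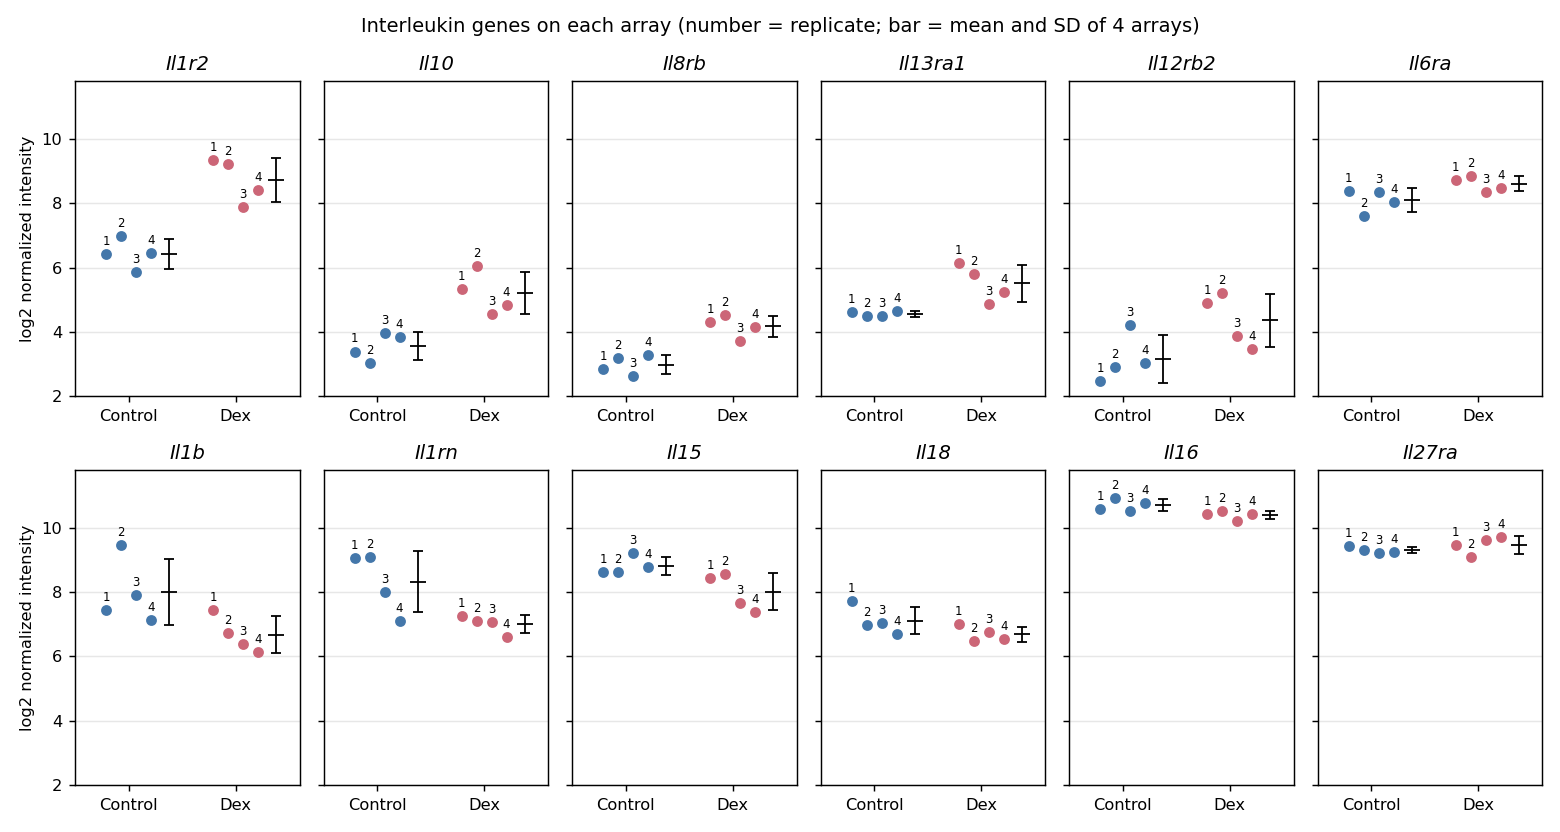
Log2 normalized intensity of 12 interleukin genes on each array (points, numbered by replicate), with the mean and SD of the 4 Control and 4 Dex arrays beside them. Il1r2 was at 5.86 to 6.98 in Control and at 7.89 to 9.35 in Dex, and for Il1b, Il1rn, Il12rb2, Il6ra, Il18 and Il27ra the groups overlapped; levels compare only within a panel.

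Il1b, the ligand that Il1r2 binds, is made mainly by activated myeloid cells. Its level was 7.45, 9.45, 7.91 and 7.14 in Control and 7.45, 6.71, 6.37 and 6.14 in Dex. The groups overlapped, since Dex 1 was above Control 4, and Control 2 was the highest array. On average Dex differed from Control by a log2 fold change of -1.32 ± 0.52 (SE), with an unadjusted p of 0.0339 and a limma adjusted p of 0.409. A second probe, printed 10 times on each array, gave 7.03, 8.99, 7.52 and 6.72 in Control and 6.94, 6.09, 5.31 and 4.71 in Dex. Both probes put Control 2 highest and Dex 4 lowest, and the second gave -1.80 on the log2 scale (limma adjusted p = 0.328). Within replicate number 1 the brighter probe did not separate the treatments, at 7.45 in both arrays. Without Control 2, its log2 fold change was -0.83.

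Il1rn encodes the IL-1 receptor antagonist, which blocks Il1r1. Its level was 9.07, 9.10, 8.0 and 7.11 in Control and 7.26, 7.09, 7.05 and 6.60 in Dex. Control arrays 1 and 2 were well above all others, and Control 4 lay below Dex 1. On the log2 scale Dex differed from Control by -1.32 ± 0.45 (SE), with a limma adjusted p of 0.325. Within replicate numbers 1 to 4 the difference was -1.82, -2.01, -0.95 and -0.52, and with that number as a block the limma adjusted p was 0.247. The gene's other probe was not well above background on any array and had a log2 fold change of 0.47, which leaves the fold to 1 probe.

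The first 250 bases upstream of the Il1b and Il1rn starts are shown because both genes had lower values with dexamethasone. They were taken from RefSeq (build GRCr8), which held such a window for 41 of the 56 genes, and Il1r2 and Il10 were not among them. Capitals mark TATAAA, read on either strand. In Il1b (chr3:137036582-137036831, minus strand) it begins 60 bases before the start, and in Il1rn (chr3:27520072-27520321, plus strand) it is on the reverse strand and begins 64 bases before the start.
Il1b: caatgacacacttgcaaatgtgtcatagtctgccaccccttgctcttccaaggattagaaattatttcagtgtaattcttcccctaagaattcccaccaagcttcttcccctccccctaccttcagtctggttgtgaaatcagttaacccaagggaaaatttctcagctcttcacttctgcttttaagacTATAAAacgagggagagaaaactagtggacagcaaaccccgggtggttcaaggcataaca
Il1rn: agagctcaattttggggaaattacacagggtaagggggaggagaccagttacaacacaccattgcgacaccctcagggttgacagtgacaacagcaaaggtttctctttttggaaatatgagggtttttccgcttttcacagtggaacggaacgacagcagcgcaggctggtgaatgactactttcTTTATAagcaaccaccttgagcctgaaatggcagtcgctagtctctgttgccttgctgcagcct

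TATAAA occurred on either strand in 12.9% of all 33469 windows of this length. AGAACA, a core motif of the glucocorticoid response element, occurred in 17.5% and TGANTCA, the AP-1 motif, in 6.34%. These letters are in neither the Il1b nor the Il1rn window, which says nothing about binding elsewhere.

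Il1a, the other IL-1 that activates Il1r1, was near background, at 2.96, 4.26, 3.88 and 2.77 in Control and 3.18, 3.48, 2.61 and 3.03 in Dex. Il18, a relative of IL-1 that acts on T cells, was above background on all arrays, with levels of 7.72, 6.98, 7.04 and 6.70 in Control and 6.99, 6.46, 6.75 and 6.54 in Dex. Its groups overlapped, and its log2 fold change was -0.43 by 1 probe and -0.50 by the other (limma adjusted p of 0.622 and 0.498). Without Control 1, its highest array, the first value was -0.22. Within replicate numbers 1 to 4 the first probe differed by -0.73, -0.52, -0.29 and -0.17, and with that number as a block its limma adjusted p was 0.406. Il18bp, a soluble protein that binds IL-18, was at 7.56 to 7.89 in Control and 7.29 to 7.84 in Dex, and its groups overlapped too. Both chains of the IL-18 receptor were near background. Il18r1 was at 2.65, 2.78, 1.95 and 1.63 in Control and 3.23, 2.14, 1.79 and 2.69 in Dex, and well above background on 2 arrays.

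The IL-36 related ligands Il1f5, Il1f6 and Il1f8 lie close together on chromosome 3 with Il1f10 and Il1rn. By their rn3 probe positions, Il1a and Il1b lie far from them on the same chromosome. Il1f6 was above background on all arrays, at 4.00 to 5.10 in Control and 4.25 to 5.56 in Dex. Il1f10 was well above background on 1 array, Dex 4, at 3.20. Its mean was 1.77 in Control and 2.79 in Dex, with a limma adjusted p of 0.28, and 7 of the 8 values were not well above background. Of the 18 genes of the IL-1 family, 1 (5.56%) was called, against 0.778% of all probes, 9 had higher and 9 had lower values with dexamethasone, and the median log2 fold change was -0.07 against 0.00 for all probes.

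**Figure D2:**
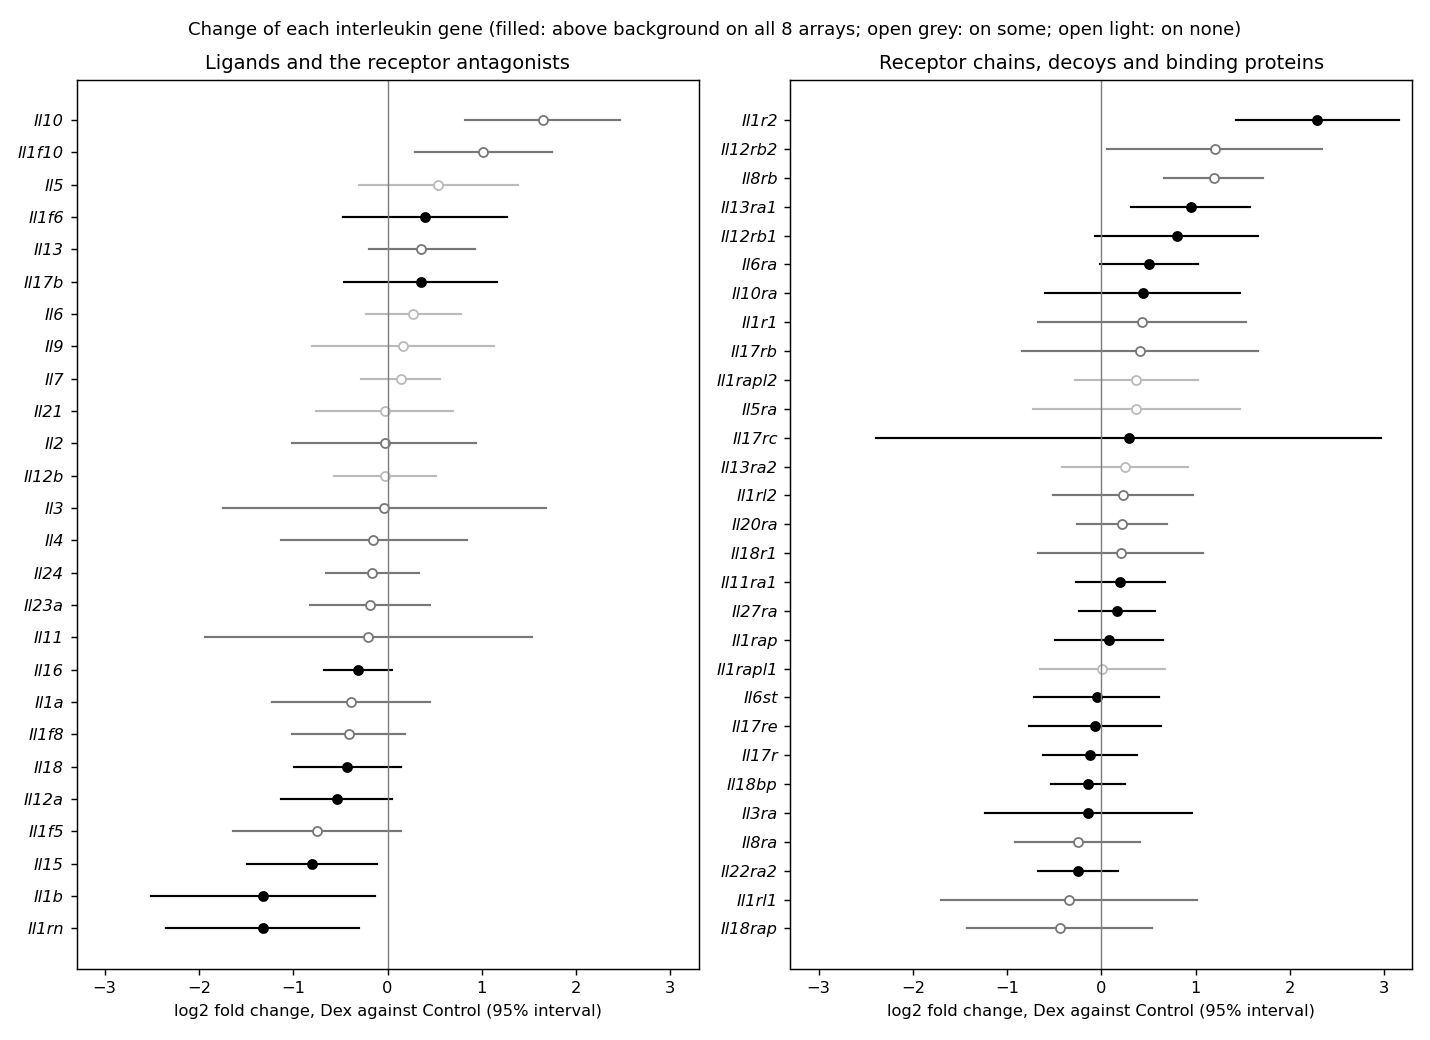
Log2 fold change of each of the 26 ligands (left) and 29 receptors (right), Dex against Control, with 95% intervals from limma; filled points were well above background on all 8 arrays, open grey points on some and open light points on none. The interval of Il1r2 ran from 1.43 to 3.16, and the intervals of most other genes included 0; those of open points rest on signals near background.

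Il10, a ligand that restrains macrophages and T cells, had the highest log2 fold change among the ligands. Its probe was printed 10 times on each array, and its level was 3.39, 3.02, 3.97 and 3.83 in Control and 5.32, 6.06, 4.57 and 4.85 in Dex. All Dex arrays were above all Control arrays. The signal was low, and Control 1 was not well above background. The log2 fold change was 1.65 ± 0.36 (SE), a 3.13-fold difference, with an unadjusted p of 0.00168 and a limma adjusted p of 0.109. The difference within replicate numbers 1 to 4 was 1.93, 3.04, 0.60 and 1.02, so it was larger for the pairs 1 and 2. After normexp background correction with an offset of 50, which draws low signals together, it was 0.38. Il10ra, the chain that binds IL-10, was at 5.46, 4.39, 4.69 and 5.04 in Control and 5.83, 6.32, 4.39 and 4.78 in Dex. Dex 1 and 2 were its highest arrays, while Dex 3 matched the lowest Control array. Of the other IL-10 relatives, Il24, Il20ra and the soluble Il22ra2 had log2 fold changes of -0.25 to 0.22, and no gene of the 5 in this family was called.

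Il15 promotes the survival of memory T cells and NK cells. Its probe is shown because Il15 was the γ chain ligand measured on all arrays, and it lies without a gap at chr19:27500983-27501042 in rn3, plus strand. No base is marked.
Il15: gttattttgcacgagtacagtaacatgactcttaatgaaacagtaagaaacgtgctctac

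The Il15 level was 8.62, 8.63, 9.21 and 8.78 in Control and 8.43, 8.57, 7.66 and 7.39 in Dex. The groups did not overlap, but within replicate numbers 1 and 2 Dex differed from Control by -0.19 and -0.06, and within numbers 3 and 4 by -1.56 and -1.38. Over all arrays the log2 fold change came to -0.80 ± 0.30 (SE), with a limma adjusted p of 0.388. Without Control 1, Dex 1 and Dex 2 it was -1.35 (limma adjusted p = 0.0378). That fit, chosen after seeing the data, leaves out the 2 Dex arrays with the smaller differences. It called 4671 of all probes, against 319 in the main test. The other γ chain ligands were at or near background. Il7, which stromal cells of the thymus make for developing T cells, was at 1.24, 0.94, 1.0 and 0.98 in Control and 1.55, 1.23, 1.0 and 0.95 in Dex and above background on no array. Il2 was at 3.14, 1.53, 3.20 and 1.93 in Control and 2.14, 2.45, 2.98 and 2.09 in Dex, and well above background only on Control 3 and Dex 3. Il4, the T helper ligand, was at 3.52, 3.84, 4.83 and 4.32 in Control and 3.39, 3.25, 4.60 and 4.68 in Dex, with the arrays of replicates 3 and 4 above those of replicates 1 and 2 in both groups. Il9 and Il21 were above background on no array. Il13 was above background on 7 arrays, at 4.18 to 4.80 in Control and 4.52 to 5.31 in Dex.

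Il13ra1, the chain that pairs with the IL-4 receptor to bind IL-13, had 4 probes. The brightest gave 4.62, 4.48, 4.48 and 4.66 in Control and 6.13, 5.79, 4.86 and 5.24 in Dex. No Dex array overlapped the Control arrays, whose SD was 0.10. This probe's log2 fold change was 0.95 ± 0.28 (SE), with an unadjusted p of 0.00886 and a limma adjusted p of 0.243. The other 3 probes were near background and gave -0.62, 0.04 and 0.61. For the brightest probe the log2 fold change was 0.31 after normexp correction, 0.51 without Control 1, Dex 1 and Dex 2, and 0.24 on the slide that Control 1 and Dex 3 shared. The array places these probes on chromosome 11 in rn3, whereas RefSeq (GRCr8) places Il13ra1 on chromosome X; the other 36 of 37 genes with a RefSeq accession had the same chromosome in both. Il13ra2, the decoy for IL-13, was above background on no array.

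**Figure D3:**
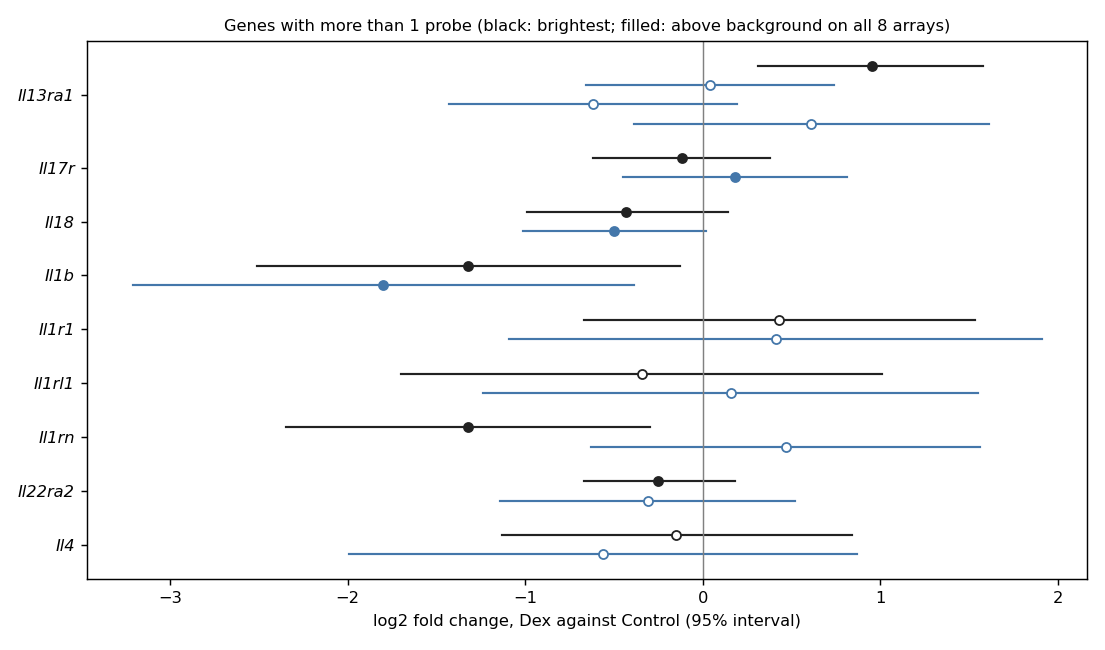
Log2 fold change and 95% interval for each probe of the 9 genes with more than 1 probe; black marks the brightest probe, blue the others, and filled points were well above background on all 8 arrays. The 2 Il1b probes both lay below 0, at -1.32 and -1.80, while for Il1rn and Il13ra1 only the brightest probe was above background on all arrays.

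In 3 of these 9 genes, Il1b, Il17r and Il18, both probes were above background on all arrays. The probes of Il1b and of Il18 had the same sign, and those of Il17r gave -0.12 and 0.18.

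In the IL-6 and IL-12 family, Il12rb2, the chain that carries the IL-12 signal in T helper 1 cells, had the highest fold change. Its probe is shown because it also crosses an intron, at chr4:97174746-97178533 in rn3, minus strand. No base is marked.
Il12rb2: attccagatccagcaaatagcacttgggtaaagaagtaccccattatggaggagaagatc

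Il12rb2 was at 2.48, 2.92, 4.22 and 3.03 in Control and 4.89, 5.21, 3.87 and 3.47 in Dex. Dex 1 and 2 were above all Control arrays, and Dex 3 and 4 were below Control 3. Its log2 fold change was 1.2 ± 0.49 (SE), with a limma adjusted p of 0.439, and it was 0.28 without Control 1, Dex 1 and Dex 2, the arrays with the fewest probes above background. Il12rb1, its partner in the IL-12 receptor, was above background on all arrays, at 4.36, 4.57, 3.71 and 4.43 in Control and 5.72, 5.48, 4.07 and 5.00 in Dex. Dex 3 lay among the Control arrays, and the log2 fold change was 0.80 (limma adjusted p = 0.518), or 0.30 without the same 3 arrays, and on the shared slide it was -0.30. Il12a, the smaller subunit of IL-12, was at 7.55, 7.29, 7.05 and 7.27 in Control and 7.35, 6.92, 6.31 and 6.42 in Dex. Its log2 fold change was -0.54 (limma adjusted p = 0.527), or -0.83 without those 3 arrays (limma adjusted p = 0.0394). That fit, chosen after seeing the data, called 4671 of all probes, against 319 in the main test. The larger subunit, Il12b, was above background on no array.

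Il6, the ligand of acute inflammation, was above background on no array, at 1.2, 1.09, 1.01 and 1.13 in Control and 1.77, 1.69, 1.01 and 1.04 in Dex. Both chains of its receptor were measured on all arrays. Il6ra, the chain that binds IL-6, was at 8.38, 7.60, 8.36 and 8.05 in Control and 8.72, 8.86, 8.35 and 8.47 in Dex. Dex 3 lay below Control 1 and Control 3, and the log2 fold change was 0.51 ± 0.22 (SE), with a limma adjusted p of 0.479. On the slide that Control 1 and Dex 3 shared it was -0.02. Il6st, the signaling chain gp130, was at 6.39, 6.58, 6.80 and 6.39 in Control and 6.99, 6.95, 6.18 and 5.85 in Dex. Dex 1 and 2 were above all Control arrays and Dex 3 and 4 below them. Il27ra, the IL-27 receptor of T cells, was at 9.43, 9.29, 9.21 and 9.25 in Control and 9.45, 9.09, 9.60 and 9.71 in Dex, with overlapping groups. None of the 11 genes of this family was called, and their median log2 fold change was 0.17.

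Il8rb, named Cxcr2 today, is the neutrophil receptor for IL-8 related chemokines, and it was chosen for description after its values were seen. Its level was 2.84, 3.19, 2.63 and 3.28 in Control and 4.31, 4.51, 3.73 and 4.14 in Dex. The groups did not overlap, but Control 1, Control 3 and Dex 2 were not well above background. Its log2 fold change was 1.19 ± 0.23 (SE), with a limma adjusted p of 0.0741, and it was 0.13 after normexp correction. Il8ra, its relative, was at 2.57 to 3.36 in Control and 2.18 to 3.20 in Dex, near background and overlapping. Il16, a chemoattractant for CD4 cells, was at 10.59, 10.91, 10.51 and 10.78 in Control and 10.41, 10.51, 10.20 and 10.43 in Dex. Dex 2 equalled the lowest Control array to 2 decimals and otherwise the Dex arrays were lower, and the log2 fold change was -0.31 (limma adjusted p = 0.564).

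In the IL-17 family, 4 of the 5 genes were above background on all arrays, namely the ligand Il17b and the receptors Il17r, Il17rc and Il17re. Il17r, the main receptor of IL-17 (Il17ra today), was at 8.08 to 8.95 in Control and 8.15 to 8.54 in Dex. Il17rc, its partner, was at 6.62, 6.31, 9.10 and 8.10 in Control and 5.86, 5.73, 10.20 and 9.5 in Dex. Replicates 3 and 4 were above replicates 1 and 2 in both groups, by 2.14 in Control and 4.05 in Dex, and this spread was larger than the difference between the groups. Il17rb, which binds IL-25, was near background, at 1.56, 2.45, 3.51 and 3.57 in Control and 2.09, 3.65, 3.79 and 3.21 in Dex. In the IL-3 and IL-5 group, Il3ra was above background on all arrays, at 5.88 to 7.74 in Control and 5.98 to 7.50 in Dex. Il5 and Il5ra were above background on none.

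**Figure D4:**
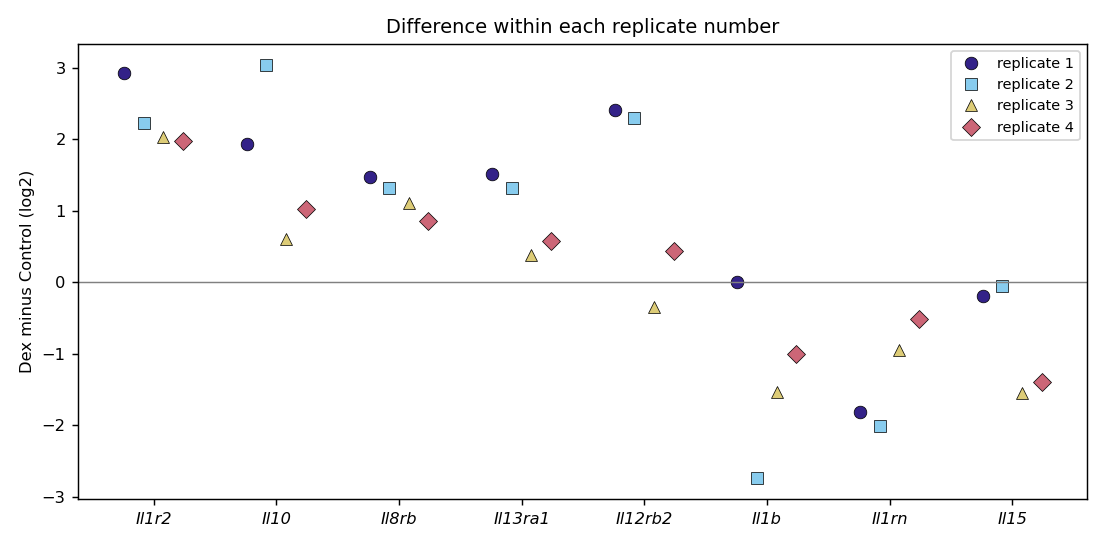
Difference between the Dex and the Control array of the same replicate number (log2) for 8 interleukin genes, 1 symbol per replicate. Il1r2 differed by 1.98 to 2.92 in all 4 pairs, while Il12rb2 differed more in replicates 1 and 2 and Il15 more in replicates 3 and 4.

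Across all members, 8 of 26 ligands and 15 of 29 receptors were well above background on all 8 arrays. By probe, this was 40.3% of the members against 58.5% of all probes. Another 6 ligands (Il5, Il6, Il7, Il9, Il12b and Il21) and 4 receptors (Il5ra, Il13ra2, Il1rapl1 and Il1rapl2) were above background on none. The number of ligands detected was 12, 18, 17 and 17 on Control arrays 1 to 4 and 12, 9, 18 and 19 on Dex arrays 1 to 4. The number of receptors was 16, 24, 19 and 23, and 17, 16, 23 and 25. The fewest were found on Control 1, Dex 1 and Dex 2, where the lowest signal well above background was 3.66, 4.06 and 4.44, compared with 2.32 to 2.58 on the other arrays. Dex 1 and 2 were the highest of the 8 arrays for 15 of the 56 genes, Il1r2, Il10, Il13ra1 and Il12rb2 among them, and the lowest for 7. The part of this difference between arrays in the values was not tested.

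**Figure D5:**
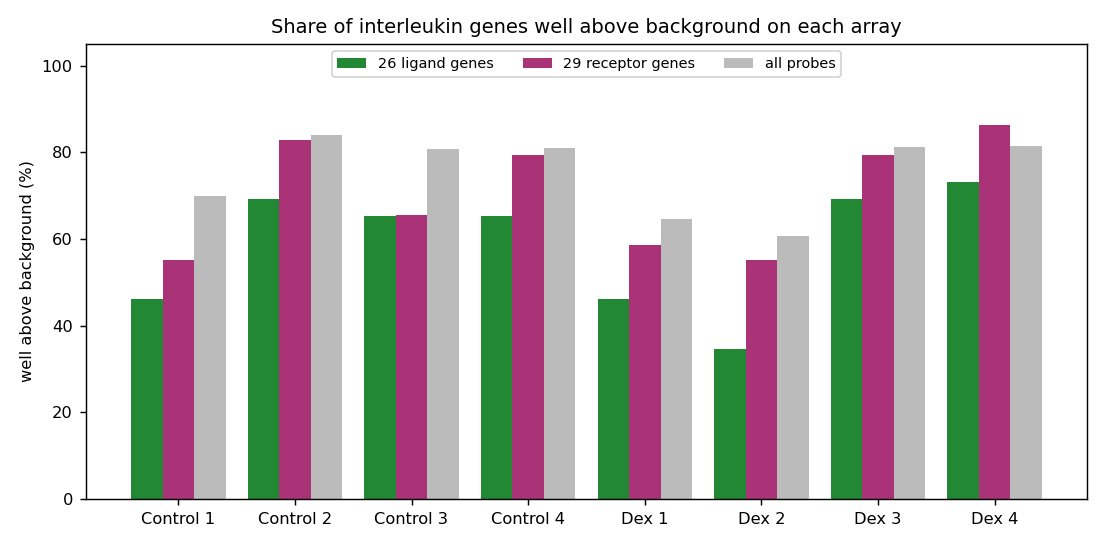
Share of the 26 ligand genes, the 29 receptor genes and all probes that were well above background on each array (%). Control 1, Dex 1 and Dex 2 had the lowest shares of all probes, at 69.9%, 64.5% and 60.7%.

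The median log2 fold change was -0.09 over the 26 ligands and 0.22 over the 29 receptors, against 0.00 over all probes. Of the ligands 17 had lower and 9 had higher values, and of the receptors 9 had lower and 20 had higher values. Among the genes above background on all arrays, 6 of 8 ligands were lower, and 9 of 15 receptors were higher. At an unadjusted p under 0.05, 10 of the 67 member probes (14.9%) passed, against 10.6% of all probes. Groups did not overlap for 7 member probes (10.4%), against 9.1% of all probes, namely those of Il1r2, Il10, Il8rb, Il13ra1, Il1f10, Il15 and Il16. By the mean difference over the summed SDs, the signal to noise statistic that the study used, 4 member probes (5.97%) passed at a nominal p of 0.01 and a fold change of 1.2, against 6.79% of all probes. They were Il1r2, Il10, Il8rb and Il13ra1, all higher with dexamethasone. At an unadjusted limma p of 0.01 with the same fold change, 4 member probes passed as well, against 3.88% of all probes. These shares were near those of the whole array.

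Of 31 genes that transmit or limit interleukin signals, 27 were on the array and 1 (3.7%) was called, against 0.778% of all probes. Socs1, an inhibitor of JAK kinases that cytokines induce, was at 10.15 to 10.35 in Control and 11.24 to 11.60 in Dex. Its log2 fold change was 1.12 ± 0.15 (SE), a 2.18-fold increase, with a limma adjusted p of 0.0165. With the replicate block the limma adjusted p was 0.121, and it was 0.0621 to 0.0869 without Control 1, Control 2, Control 3, Control 4 or Dex 1. With 75th percentile scaling it was 0.0982. On the slide that Control 1 and Dex 3 shared, the log2 fold change of Socs1 was 1.09. Jak3, the kinase bound to the common γ chain, was at 10.25, 10.21, 11.18 and 10.96 in Control and 11.58, 11.82, 12.58 and 12.46 in Dex. The groups did not overlap, and the log2 fold change of 1.46 had a limma adjusted p of 0.114. It was 1.74 without Control 1, Dex 1 and Dex 2 (limma adjusted p = 0.0396). That fit, chosen after seeing the data, called 4671 probes, against 319 in the main test. With the slide as a random block it was 1.32 (limma adjusted p = 0.022), but the estimated slide correlation there was negative, at -0.235. With the replicate block the limma adjusted p was 0.062. On the shared slide the log2 fold change of Jak3 was 2.33. The IL-1 adaptor Myd88 and its kinase Irak1 had log2 fold changes of 0.14 and 0.12. The median of the 27 genes was -0.04, and 11 had higher and 16 had lower values.

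IL-1β, the IL-1 receptor antagonist and the decoy receptor are made largely by myeloid cells, and IL-10 by these and by other leukocytes. Markers of myeloid and other cells are therefore given beside them. Of 12 macrophage and dendritic cell markers, 10 were on the array, 8 were well above background on all arrays and none was called, with 6 higher and 4 lower in Dex. Their summed linear level was 4406 to 6118 in Control and 4166 to 8566 in Dex. Most of this sum came from Lyz, at 11.67 to 12.36 in Control and 11.47 to 12.75 in Dex on the log2 scale. Mrc1, the mannose receptor, was at 4.00, 3.37, 4.91 and 3.59 in Control and 6.81, 6.28, 6.05 and 5.20 in Dex, with a limma adjusted p of 0.087. Cd14 was at 6.15, 7.29, 5.81 and 5.66 in Control and 5.97, 5.63, 4.98 and 5.25 in Dex, highest on Control 2, as was Il1b. C1qb and C1qa, subunits of complement C1q, had higher values in Dex, at 1.79-fold and 1.65-fold (limma adjusted p of 0.33 and 0.634). None of 12 granulocyte markers, a list chosen after the values were seen, was called, and their summed level was 3461 to 7017 in Control and 3336 to 8038 in Dex. Of these, 11 had higher values in Dex and 1 a lower one, with a median log2 fold change of 0.20. Of the B cell, natural killer cell, stromal and erythroid markers, none was called either. The stromal marker Pdgfrb was 3.28-fold higher without overlap of the groups (limma adjusted p = 0.16), and 5 of the 6 stromal and all 3 erythroid markers on the array had higher values in Dex. Of the 7 natural killer and cytotoxic cell markers 6 had lower values, and the 4 B cell markers were split evenly. The part of these cells in the interleukin values was not tested.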

How the data were processed

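RNA labeled with Cy3 was measured by the authors on Agilent Whole Rat Genome arrays in 1 color. The deposited scanner output holds spot intensities from Feature Extraction 9.5.3.1, with background subtracted, and probe positions in rn3. The authors also deposited log2 values, quantile normalized and summarized per probe by median polish.

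Here the deposited intensities of 43379 non-control spots were set to log2, quantile normalized between arrays and averaged per probe. Spots flagged as outliers (767) were left out, and 16 values of 41012 probes were then missing. No probe was saturated. A probe was called well above background on an array where 50% or more of its spots carried that flag. limma 3.58.1 in R 4.3.3 (lmFit and eBayes, all 8 arrays, no block, two-sided) gave p-values adjusted by Benjamini-Hochberg over all probes at 0.05. The fit was tested on simulated data. The signal to noise statistic was ranked one-tailed among the values of all probes together in the 70 possible splits of the arrays. The number of arrays limits the precision.

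Same-numbered Control and Dex arrays deviated together (r = 0.40, 0.13, 0.55 and 0.18 for numbers 1 to 4), and the number was the block of an alternative fit. The numbers do not single out the pairs: r was also 0.40 for Control 1 with Dex 2, 0.19 for Control 2 with Dex 1 and 0.39 for Control 3 with Dex 4, so that numbers 1 and 2 stood together against 3 and 4.

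Values on every array are given for members called by limma, for members with an unadjusted p under 0.05 whose brighter group was well above background throughout, and for a list of 21 known members. The members and lists were chosen with earlier results of these data known. Of the excluded receptors 7 genes are on the array, Il4r under the name Il4ra. Alternatives are given in the closing section.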

Additional observations from a re-analysis of the deposited data

Results flagged for a closer look

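In 112 groups of 4 arrays (56 genes, Control and Dex), 4 held an array far from the other 3, where chance alone flags about 1 in 20. Il3 was at 5.81 on Control 1 and at 2.38 to 2.67 on the other Control arrays, and was above background on Control 1. Il1rl2, the IL-36 receptor, was at 2.08 on Dex 1 and at 3.37 to 3.48 on the other Dex arrays, and was not well above background on Dex 1 or Dex 2. Il5 was at 2.06 on Control 1, against 1.11 to 1.21, and Il12b was at 1.85 on Control 2, against 1.01 to 1.04. The latter pair was above background on no array.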

How the results depend on the processing

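The count of called member probes was 1 (Il1r2) in the main test, with normexp correction, with dim probes left out and with the series table as deposited. It was 0 with 75th percentile scaling, 0 with the replicate number as a block (pairing), 0 with the slide as a fixed block, and 0 to 1 when single arrays were left out. It was 5 with the slide as a random block (Il1r2, Il10, Il8rb, Il13ra1 and Il1f10). In that fit the correlation between arrays of a slide was estimated as negative, at -0.235, and slide and treatment largely coincided. It therefore cannot be read as a correction for the slide. The count was 4 by the signal to noise statistic, against 6.79% of all probes. It was also 4 at an unadjusted limma p of 0.01 with a fold change of 1.2, against 3.88% of all probes. Without Control 1, Dex 1 and Dex 2, a choice made after seeing the data, it was 5 (Il1r2, Il15, Il12a, Il17b and Il1f8). Over all probes, 319 were called in the main test, 166 with 75th percentile scaling, 912 with normexp, 562 without dim probes, 81 with the replicate block, 1 and 1838 with the slide as a fixed and a random block, 96 to 249 without single arrays and 4671 without the 3 dimmest arrays. The slide as a fixed block leaves the comparison to Control 1 and Dex 3, 1 array of each group, so a count of 0 there says little. On that slide the log2 fold change of Il12rb1 was -0.30 and that of Il6ra was -0.02, opposite in sign to the main values of 0.80 and 0.51. The other 12 of 14 members recomputed kept their sign under every alternative run. The causes were not tested. With normexp the log2 fold change of Il1r2 was 1.41, those of Il10, Il8rb and Il12rb2, each near background on some arrays, were 0.38, 0.13 and 0.17, and those of Il13ra1 and Il12rb1, above background on all arrays, were 0.31 and 0.23.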

Other observations

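The 250-base windows upstream of 41 member genes were searched on both strands. AGAACA occurred in 14.6% of them against 17.5% of all windows, TGANTCA in 12.2% against 6.34% and TATAAA in 17.1% against 12.9%. These shares are given as a description.

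For 7 of the 56 genes, Dex arrays 1 and 2 were the lowest of all 8 arrays. They were Il17rc and 6 genes that were not well above background on either (Il4, Il11, Il1f5, Il1rl1, Il18rap and Il8ra). Il11 was at 2.75, 2.91, 1.90 and 3.40 in Control and 1.2, 1.06, 3.84 and 4.02 in Dex. Il1rl1, the IL-33 receptor, was at 4.25, 4.21, 4.80 and 4.55 in Control and 3.25, 2.81, 5.64 and 4.74 in Dex. Il18rap was at 3.33, 3.39, 2.63 and 2.77 in Control and 1.95, 1.80, 3.64 and 2.96 in Dex.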
